A study of Mus musculus with 18 samples.

Results

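Knockout clones 42 and 17 of the mouse pancreatic tumour line 2838 were compared with each other, gene by gene and along the chromosomes. The 2 clones were taken by their labels, which name both as CRISPR knockouts of Mcu, but with earlier results of these data known. They account for 6 of the 18 libraries of the series, 3 from each clone. Of 35642 gene symbols in the deposited table, 11332 reached 1 TPM in at least 3 of the 6 libraries and were tested. TPM is a transcript abundance corrected for transcript length and scaled to a common total, so it keeps no record of sequencing depth, and the depth of each library was unknown.

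Line 2838 came from KPCY mice, with alleles that include Trp53 LSL-R172H/+, Pdx1-Cre and R26 LSL-Yfp/LSL-Yfp. Cre made under the Pdx1 promoter switches on mutant Trp53 and a yellow fluorescent reporter in cells of the pancreatic lineage, and every clone here shares these alleles. The cells were untreated, polyA RNA was sequenced, and all libraries of line 2838 were labelled batch 2. Wild-type clones 22 and 15, which carried an empty vector, had 3 libraries each and served here to place the levels of the knockout clones. An empty vector is not named for the knockout clones. Each group was a single clone, so a difference between clones 42 and 17 speaks of those clones only. Libraries of a clone are not stated to come from separate cultures, and p-values therefore measure the spread between libraries, which may be technical.

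Mcu is the pore-forming subunit of the mitochondrial calcium uniporter, the channel through which calcium enters the mitochondrial matrix. The integrated stress response, which leads the differences below, is a pathway in which shortage of amino acids, damage to mitochondria or unfolded protein in the endoplasmic reticulum leads to phosphorylation of the initiation factor eIF2. Bulk protein synthesis then slows while the transcription factor ATF4 is translated and raises genes for amino acid supply and for stress signalling. Tumour lines in culture are often aneuploid, carrying extra or missing chromosomes, and clones drawn from a line can differ in chromosome content. DNA copy number was not analysed here.

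Libraries of a clone were alike. Pearson's r of log2(TPM + 1) over genes was 0.985 to 0.987 within clone 42 and 0.987 to 0.990 within clone 17, against 0.950 to 0.957 between the clones. Ductal epithelial markers summed to 6569, 6636 and 6141 TPM in clone 42 and to 7309.7, 7427 and 7310.1 TPM in clone 17, led by keratins, although Epcam was at 0.552 TPM or less in every library. Fibroblast markers summed to 0.229 TPM or less with 4 of 6 at 0 in all 6 libraries, and endothelial markers to 0.318 TPM or less. Leukocyte markers summed to 5.83, 5.49 and 6.20 TPM in clone 42, against 4.11, 3.48 and 3.46 TPM in clone 17, and 7 of these 8 genes were under 1 TPM in all 6 libraries. Wild-type clone 22 replicate 3 stood apart, with an upper quartile of 3.73 TPM against 6.97 to 7.85 TPM in the line's other libraries. Some counts resting on it are also given without it. The fit of all 12 libraries used below, the wild-type ranges of single genes and the pair differences of single genes include it.

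The 2 knockout clones differed in 5583 of the 11332 genes tested (49.3%) at a Benjamini-Hochberg adjusted p under 0.05 in limma. In clone 42, 2670 genes were higher (23.6%) and 2913 were lower (25.7%), and with the mitochondrially encoded genes removed and TPM rescaled the balance turned, with 3018 higher and 2625 lower. Changes of at least 1 on the log2 scale were fewer, 398 higher (3.51%) and 343 lower (3.03%), 741 in all (6.54%). The 3 libraries of clone 42 did not overlap the 3 of clone 17 for 6624 genes (58.5%). Between wild-type clones 22 and 15, the same test called 0 genes higher and 1 lower of 11393 (0.00878%), with 719 at an unadjusted p under 0.05. Without clone 22 replicate 3 it called 48 (0.423%), with 1740 at an unadjusted p under 0.05. The median SE was 0.27 for the wild-type pair, 0.15 without that library and 0.10 for the knockout pair. The counts of calls were therefore not made at equal power. Log2 changes of at least 1, called or not, numbered 265 (2.33%) between the wild-type clones and 775 (6.84%) between the knockout clones. The SD of log2 changes over genes was 0.56 between the knockout clones, against 0.39 between the wild-type clones and 0.34 without that library. A direct test of the difference between the pairs, clone 42 minus clone 17 set against clone 22 minus clone 15, called 1280 of 11795 genes (10.9%), or 3492 of 11767 (29.7%) without that library. A fit that shared the spread of all 12 libraries called fewer genes, 971 higher and 1066 lower. It included clone 22 replicate 3, and the part of that library in the lower counts was not tested.

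Mcu itself separated the clones. Mcu (chromosome 10, 59446984 to 59616692, minus strand, mm10) had 12.3, 10.5 and 11.5 TPM in clone 42, against 120.1, 122 and 113 TPM in clone 17 (log2 change -3.27 ± 0.07 SE, limma adjusted p = 2.31e-07). The clone 42 libraries all lay below those of clone 17 and below the 59.3 to 96.3 TPM of the wild-type clones, whereas all clone 17 libraries lay above every wild-type library. Mcu RNA therefore went with the knockout label in clone 42 and against it in the clone labelled knockout 17. RNA of an edited gene can persist without functional protein, so its level checks a label only in part. The Mcu difference between clones 42 and 17 minus that between wild-type clones 22 and 15 was -3.38 on the log2 scale (limma adjusted p = 2.54e-05).

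Of 7 tested genes of the uniporter complex, 4 fell (57.1%, against 25.7% of all genes tested) and 1 rose (14.3%, against 23.6%) in clone 42. The median was -0.33, against -0.01 over all genes tested. Mcub, a relative of the pore subunit that lowers channel activity, had 23.5, 31.8 and 25 TPM in clone 42, against 47.8, 46.8 and 42.4 TPM in clone 17 (log2 change -0.76 ± 0.11 SE, limma adjusted p = 0.000937), with no overlap. The small scaffold subunit gene Smdt1 (log2 change -0.33) and the gatekeeper gene Micu2 (-0.33) also fell, by less. Mcur1, an assembly factor, rose by 0.41. Micu3, another gatekeeper gene (-0.09), did not pass the test (limma adjusted p = 0.574). In a fit that shared the spread of all 12 libraries of the line, Smdt1, Micu2 and Mcur1 lost their calls.

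Genes of the integrated stress response were lower in clone 42 than in clone 17. In these bulk libraries, fewer cells of a kind and less RNA per cell cannot be told apart. Of 29 tested members of the stress and unfolded protein response list, 22 fell (75.9%, against 25.7% of all genes tested). A further 4 rose (13.8%, against 23.6%) and 3 did not pass. The list median was a log2 change of -1.11. Atf4, the central transcription factor of the response, had 257, 280.2 and 279 TPM in clone 42, against 801, 783 and 788 TPM in clone 17 (log2 change -1.54 ± 0.05 SE, limma adjusted p = 8.64e-07). Its libraries separated completely, with all 6 wild-type libraries between the clones at 378 to 579 TPM. Ddit3, which encodes CHOP, a factor that follows ATF4 and can promote cell death, had 9.98, 13.3 and 10.9 TPM in clone 42, against 86.8, 103 and 79.2 TPM in clone 17 (log2 change -2.87 ± 0.13 SE, limma adjusted p = 2.92e-06). Every clone 17 library lay above every wild-type library for Ddit3, and every clone 42 library below.

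The largest change on the list was that of Trib3, a pseudokinase gene and ATF4 target that feeds back on the pathway. Trib3 had 18, 21.7 and 19.2 TPM in clone 42, against 187, 198 and 168 TPM in clone 17 (log2 change -3.17 ± 0.09 SE, limma adjusted p = 6.76e-07). Chac1, which encodes an enzyme that degrades glutathione, had 14.8, 17.8 and 13.8 TPM in clone 42, against 113, 116 and 111 TPM in clone 17 (log2 change -2.80 ± 0.09 SE, limma adjusted p = 1.38e-06). For both genes the 2 clones lay on opposite sides of all 6 wild-type libraries. Gdf15, a secreted stress cytokine, had 2.95, 2.62 and 3.94 TPM in clone 42, against 23.4, 22.4 and 23.5 TPM in clone 17 (-2.54 on the log2 scale). Atf3, Atf5 and Nupr1, transcriptional regulators induced by the response, fell, with log2 changes of -1.48, -1.66 and -1.70, as did the growth-restraining gene Sesn2 (-1.92).

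Trib3 and Chac1 lie on chromosome 2 and Gdf15 on chromosome 8, and the genes of both chromosomes were lower overall in clone 42, as described below. On the 13 chromosomes with no such shift, 13 of 18 stress list genes fell and 3 rose, with a median of -0.96. When each library was centred on the median of each chromosome, 22 of the 29 genes were lower and 5 higher.

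**Figure D1:**
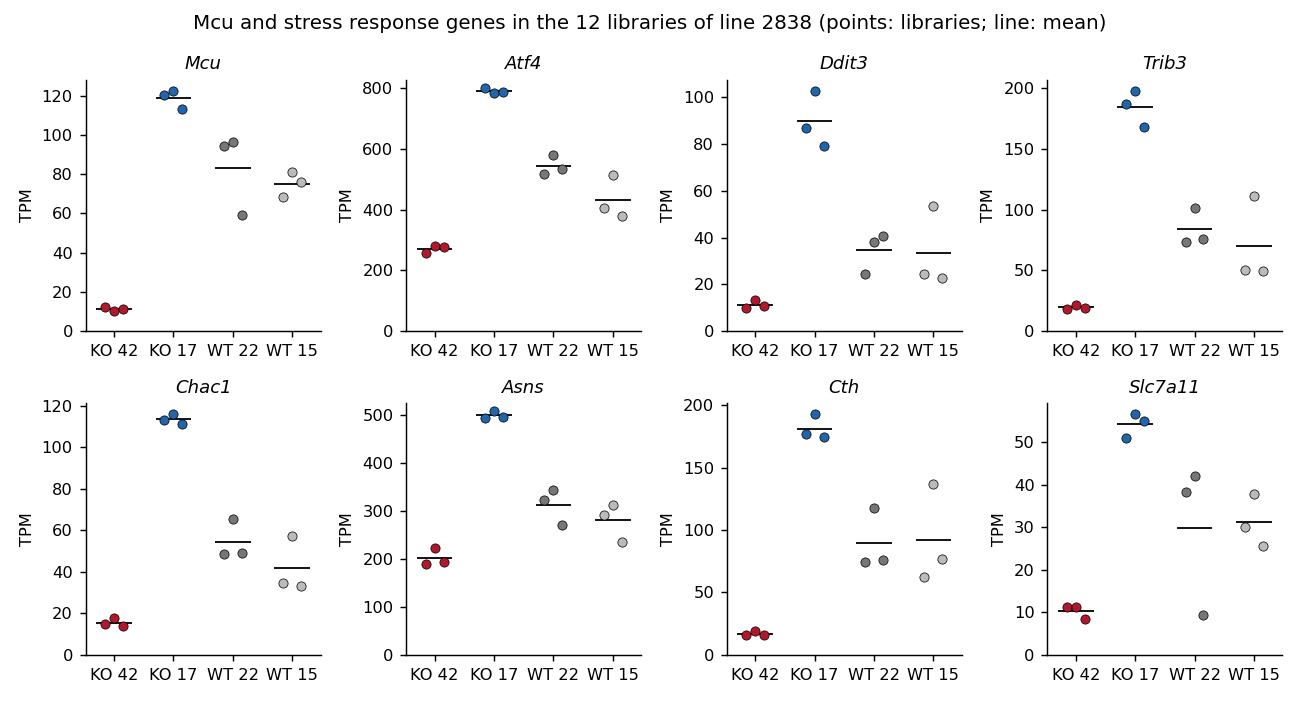
TPM of Mcu and 7 stress response or amino acid genes in each library of knockout clone 42, knockout clone 17, wild-type clone 22 and wild-type clone 15; points are libraries and lines are means. In every panel the 3 clone 42 libraries lie below the 3 clone 17 libraries, and the wild-type libraries mostly lie between.

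The promoters of 4 of these genes are shown because they carry the ATF4 and C/EBP composite element, TGATGNAA on either strand. The windows run from 250 bases before to 50 after the start site in RefSeq on GRCm38.p6 and are written in the direction of the gene, with the element in capitals. They lie at chr2:152344011-152344310 (minus strand) for Trib3, chr2:119350992-119351291 (plus strand) for Chac1, chr3:50443564-50443863 (minus strand) for Slc7a11 and chr6:7693160-7693459 (minus strand) for Asns.
Trib3: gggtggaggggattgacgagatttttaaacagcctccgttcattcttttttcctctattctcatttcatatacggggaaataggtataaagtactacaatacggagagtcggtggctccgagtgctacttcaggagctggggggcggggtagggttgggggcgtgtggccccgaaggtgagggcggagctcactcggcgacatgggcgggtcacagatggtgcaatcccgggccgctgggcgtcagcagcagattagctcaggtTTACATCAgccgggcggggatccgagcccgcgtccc
Chac1: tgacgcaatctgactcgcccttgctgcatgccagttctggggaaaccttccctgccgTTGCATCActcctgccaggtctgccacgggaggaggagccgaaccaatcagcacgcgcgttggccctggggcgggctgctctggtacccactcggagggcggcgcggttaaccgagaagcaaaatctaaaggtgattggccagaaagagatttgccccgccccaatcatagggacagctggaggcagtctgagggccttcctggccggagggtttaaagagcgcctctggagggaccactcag
Slc7a11: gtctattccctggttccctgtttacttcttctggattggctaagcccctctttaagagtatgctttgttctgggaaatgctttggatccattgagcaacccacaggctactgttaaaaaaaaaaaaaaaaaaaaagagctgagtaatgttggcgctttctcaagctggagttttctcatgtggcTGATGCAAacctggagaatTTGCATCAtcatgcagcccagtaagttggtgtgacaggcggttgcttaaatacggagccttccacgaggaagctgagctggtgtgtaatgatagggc
Asns: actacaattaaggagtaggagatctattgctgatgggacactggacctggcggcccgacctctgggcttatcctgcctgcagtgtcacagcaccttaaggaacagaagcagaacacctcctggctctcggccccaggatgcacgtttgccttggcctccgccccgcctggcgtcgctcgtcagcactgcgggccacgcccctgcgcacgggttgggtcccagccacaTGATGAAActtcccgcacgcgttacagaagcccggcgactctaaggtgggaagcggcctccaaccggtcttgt
The Slc7a11 window holds 2 copies in opposite orientation, and each other window holds 1. The letters were present for 8 of the 29 list genes with a window (27.6%), for 236 of the 8915 tested genes with a window (2.65%) and in 1304 of all 32851 windows (3.97%). A match of letters is a description of the sequence and not a binding site.

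Genes that supply amino acids fell together with the stress genes, and the lists share members. Asns, Phgdh, Psph and Mthfd2, named here, are also on the stress list. The lists of one-carbon, transporter, synthetase, chaperone and histone genes were added after values were seen. Their shares, here and below, describe the genes and test nothing. Cth, cystathionine gamma-lyase, which makes cysteine, had 15.9, 18.8 and 15.7 TPM in clone 42, against 177, 193 and 174 TPM in clone 17 (log2 change -3.36 ± 0.08 SE, limma adjusted p = 2.97e-07), with no overlap. The serine pathway enzyme genes Phgdh (-1.11 on the log2 scale) and Psph (-1.45), the mitochondrial folate enzyme genes Mthfd2 (-0.88) and Aldh1l2 (-2.69) and the cytosolic Aldh1l1 (-2.32) fell. Asns, asparagine synthetase, had 189, 222 and 194 TPM in clone 42, against 494, 508 and 496 TPM in clone 17 (log2 change -1.31 ± 0.06 SE, limma adjusted p = 4.16e-06). Counted over serine, glycine and one-carbon metabolism, 10 of 15 tested genes fell (66.7%, against 25.7% of all genes tested) and 1 rose (median -0.41).

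Amino acid transporters followed the same direction, with 10 of 14 tested genes lower (71.4%, against 25.7% of all genes tested) and 2 higher (median -0.66). Of these, Slc7a11 and Slc3a2 are also on the stress list. Slc7a11, the cystine importer whose promoter is shown above, had 11.2, 11.3 and 8.32 TPM in clone 42, against 50.9, 56.7 and 54.9 TPM in clone 17 (log2 change -2.30 ± 0.12 SE, limma adjusted p = 5.23e-06). Its partner chain gene Slc3a2 (-1.16), Slc7a5 for large neutral amino acids (-1.28) and the glutamine transporter gene Slc1a5 (-1.37) fell. Slc7a3, for arginine and lysine, had 0.718, 0.526 and 2.4 TPM in clone 42, against 17.5, 19.11 and 13.6 TPM in clone 17 (log2 change -3.08 ± 0.29 SE, limma adjusted p = 9.57e-05). Slc38a1, another glutamine transporter gene, went the other way with 3.62, 3.9 and 3.38 TPM in clone 42, against 0.715, 0.835 and 0.351 TPM in clone 17 (log2 change 1.51 ± 0.17 SE, limma adjusted p = 0.000215). Both clones lay lower for Slc38a1 than wild-type clone 15, which had 12.1, 13.4 and 13.5 TPM.

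Cytosolic aminoacyl-tRNA synthetases, which charge tRNAs for translation, fell in 18 of 20 tested cases (90%, against 25.7% of all genes tested, median -0.59). The seryl and alanyl enzymes led the group, with log2 changes of -1.10 for Sars and -1.03 for Aars. The exceptions were Vars, on chromosome 17, which rose by 0.66 but was at -0.05 once chromosomes were centred, and Hars, which did not pass (-0.16, limma adjusted p = 0.0599). The composite element stood in 5 of the 13 synthetase promoters with a window, 2 of 10 transporter promoters and 0 of 12 in one-carbon metabolism. Gadd45a, a growth arrest and stress gene, had 16.1, 21.7 and 18.5 TPM in clone 42, against 101, 110.1 and 91.4 TPM in clone 17 (log2 change -2.37 ± 0.11 SE, limma adjusted p = 4.16e-06). Impact, whose protein inhibits GCN2, the eIF2 kinase that senses amino acid shortage, rose with 31.8, 31 and 29.1 TPM in clone 42, against 8.14, 8.11 and 8.22 TPM in clone 17 (log2 change 1.79 ± 0.08 SE, limma adjusted p = 3.02e-06).

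Chaperones of the endoplasmic reticulum moved in both directions. Of 19 tested genes for chaperones and protein quality control, 7 rose (36.8%, against 23.6% of all genes tested) and 4 fell (21.1%, against 25.7%). Their median was 0.10. Xbp1, a transcription factor of the unfolded protein response, fell by 0.80. The quality control gene Herpud1 (-0.61) and Hspa5, which encodes the chaperone BiP (-0.57), also fell. Sdf2l1 rose by 0.51, Calr by 0.34, Hsp90b1 by 0.29 and Pdia4 by 0.23. Dnajb9 (-0.18), Edem1 (-0.07) and Creld2 (0.16) did not pass the test.

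The wild-type libraries place the stress difference on both sides. For 23 of the 29 stress list genes (79.3%) all 3 clone 17 libraries lay above all 6 wild-type libraries, against 13.6% of all genes tested. For 10 of the 29 (34.5%) all clone 42 libraries lay below all 6, against 6.71% of all genes tested, or 14 (48.3%, against 17.1%) without clone 22 replicate 3. The mean of each wild-type clone lay between the knockout clones, with clone 17 on top, for 21 of the 29 (72.4%, against 22.8%). These counts share the libraries of the test above and describe levels only.

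**Figure D2:**
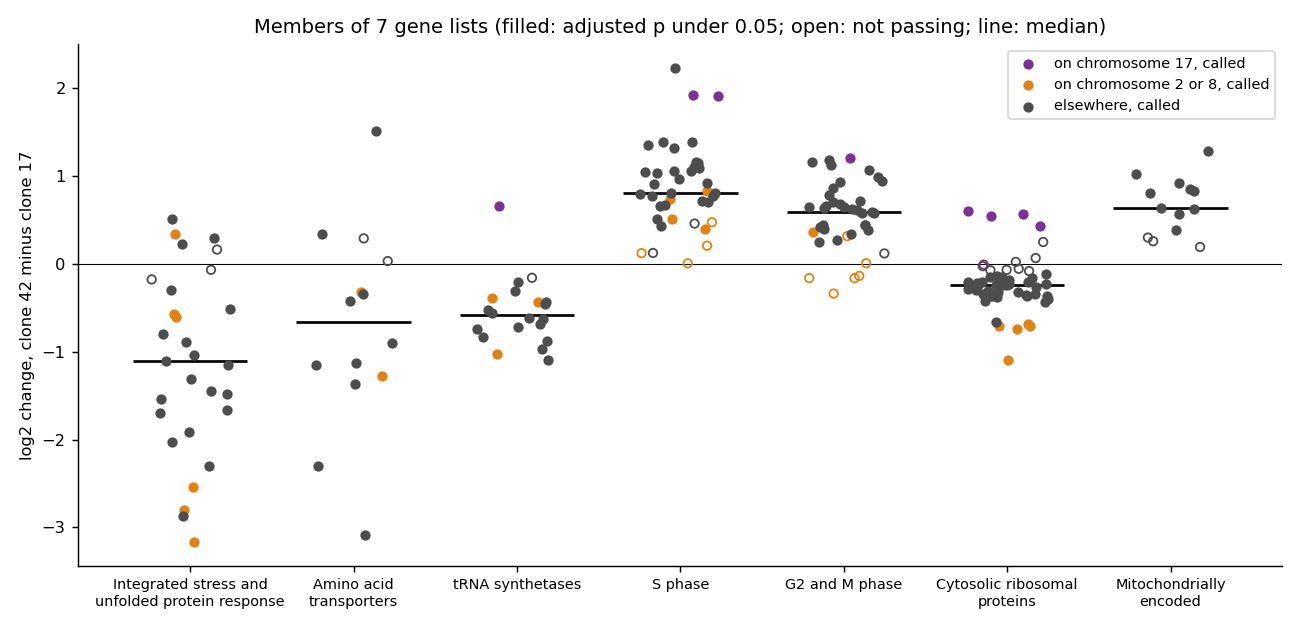
Log2 changes of the tested members of 7 gene lists, clone 42 minus clone 17, with 1 point per gene, coloured by chromosome; filled points had an adjusted p under 0.05 and black lines are list medians. Stress, transporter and synthetase genes lie mostly below 0 and cell cycle genes above, while the lowest points of the cell cycle lists are largely chromosome 2 genes and the highest of the ribosomal list are on chromosome 17.

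Cell cycle genes were higher in clone 42. Of 39 tested S phase genes, 33 rose (84.6%, against 23.6% of all genes tested) and 0 fell, with a median of 0.81. Ung, uracil DNA glycosylase, which repairs uracil in new DNA, had 14.3, 14.5 and 17 TPM in clone 42, against 1.85, 2.44 and 3.14 TPM in clone 17 (log2 change 2.24 ± 0.16 SE, limma adjusted p = 2.3e-05). Uhrf1, which carries DNA methylation through replication, had 130.1, 133 and 121 TPM in clone 42, against 33.5, 31.5 and 34.3 TPM in clone 17 (log2 change 1.92 ± 0.06 SE, limma adjusted p = 1.34e-06). Neither gene overlapped between the clones. The chromatin assembly gene Chaf1a, on chromosome 17 like Uhrf1, rose by 1.91. Origin licensing and S phase entry genes Cdc6 and Ccne2 rose by 1.39 and 1.39, the helicase subunit gene Mcm6 by 1.05 and the histone mRNA binding gene Slbp by 1.06. Rrm2, the nucleotide reductase subunit, had 185, 176 and 169 TPM in clone 42, against 67, 59.5 and 80.5 TPM in clone 17 (log2 change 1.35 ± 0.10 SE, limma adjusted p = 3.1e-05), and Pcna, the sliding clamp of DNA polymerases, had 322, 310.2 and 309.7 TPM in clone 42, against 184, 178 and 202 TPM in clone 17 (log2 change 0.74 ± 0.06 SE, limma adjusted p = 3.17e-05). The S phase regulator gene E2f1 (0.12) and the origin recognition gene Orc1 (0.13) were among the 6 members that did not pass.

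The promoters of Cdc6 and Mcm6 are shown because they hold the E2F element, TTTCCCGC or TTTGGCGC on either strand, which is known from S phase genes. They lie at chr11:98907901-98908200 (plus strand) and chr1:128359656-128359955 (minus strand) on GRCm38.p6 in RefSeq, with the element in capitals.
Cdc6: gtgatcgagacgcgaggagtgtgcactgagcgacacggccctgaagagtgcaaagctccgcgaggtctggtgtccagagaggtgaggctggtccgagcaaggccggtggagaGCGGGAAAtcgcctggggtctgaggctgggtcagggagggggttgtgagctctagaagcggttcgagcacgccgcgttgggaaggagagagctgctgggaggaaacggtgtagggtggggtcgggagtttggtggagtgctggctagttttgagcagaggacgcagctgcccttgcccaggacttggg
Mcm6: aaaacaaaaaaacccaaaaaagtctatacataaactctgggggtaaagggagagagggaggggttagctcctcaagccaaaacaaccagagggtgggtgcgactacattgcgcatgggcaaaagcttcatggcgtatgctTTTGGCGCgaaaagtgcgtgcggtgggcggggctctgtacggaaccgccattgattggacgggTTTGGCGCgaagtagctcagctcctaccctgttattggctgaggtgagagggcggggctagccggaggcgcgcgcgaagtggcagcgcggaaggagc
The Mcm6 window holds 2 copies. The letters were found in 8 of the 29 S phase promoters with a window (27.6%), 1 of 33 G2 and M phase promoters (3.03%) and 327 of the 8915 tested genes with a window (3.67%), against 514 of all 32851 windows (1.56%).

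G2 and M phase genes rose in 32 of 39 tested cases (82.1%, against 23.6% of all genes tested), with 0 lower and a median of 0.60. Mki67, which encodes the proliferation antigen Ki-67, had 48.9, 37.8 and 25.9 TPM in clone 42, against 14.5, 12.9 and 19.5 TPM in clone 17 (log2 change 1.19 ± 0.23 SE, limma adjusted p = 0.00319). Its clone 42 libraries were widely spread, yet all lay above those of clone 17. Birc5 and Aurkb, which encode the survivin and Aurora B subunits of the chromosomal passenger complex, separated more cleanly. Birc5 had 161, 144 and 151 TPM in clone 42, against 70.3, 60.1 and 77.6 TPM in clone 17 (log2 change 1.13 ± 0.09 SE, limma adjusted p = 4.64e-05), and Aurkb had 62.4, 57.3 and 62.3 TPM in clone 42, against 28.5, 28.3 and 28.3 TPM in clone 17 (log2 change 1.07 ± 0.06 SE, limma adjusted p = 9.17e-06). The kinetochore gene Ndc80 rose by 1.20, the mitotic kinesin gene Kif20b by 1.16 and the mitotic kinase gene Cdk1 by 0.65. In a fit that shared the spread of all 12 libraries, 13 of the 39 genes were higher, and Mki67 was not among them.

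Of the 7 members of the G2 and M phase list that did not pass, 6 lay on chromosome 2. These were Aurka, Ube2c, Tpx2, Ckap5, Nusap1 and Bub1b, the only tested members on that chromosome, and their median was -0.15. Leaving out 1 library changed 3 of these results, since Ube2c was lower without clone 17 replicate 2 (-0.22), Ckap5 was lower without clone 42 replicate 1 (-0.48), and Bub1b was higher without clone 17 replicate 1 (0.41) or clone 42 replicate 3 (0.43). Aurka, the Aurora A kinase gene, had 48.3, 43.8 and 43.5 TPM in clone 42, against 49.7, 48.1 and 54.3 TPM in clone 17 (-0.16, limma adjusted p = 0.0982). Ube2c, which helps to degrade mitotic cyclins, had 325, 326 and 311 TPM in clone 42, against 359, 331 and 387 TPM in clone 17 (-0.16, limma adjusted p = 0.0565). Away from chromosomes 2, 8 and 17, 30 of 31 genes of the list rose, as did 27 of 29 S phase genes. When each library was centred on the median of each chromosome, 35 G2 and M phase and 37 S phase genes were higher.

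Against the wild-type clones, all clone 42 libraries lay above all 6 wild-type libraries for 20 of the 39 S phase genes (51.3%, against 13.8% of all genes tested). All clone 17 libraries lay below all 6 for 12 (30.8%, against 4.81%), or 20 (51.3%, against 16.7%) without clone 22 replicate 3. For G2 and M phase genes the same counts were 15 of 39 above (38.5%) and 1 of 39 below (2.56%).

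**Figure D3:**
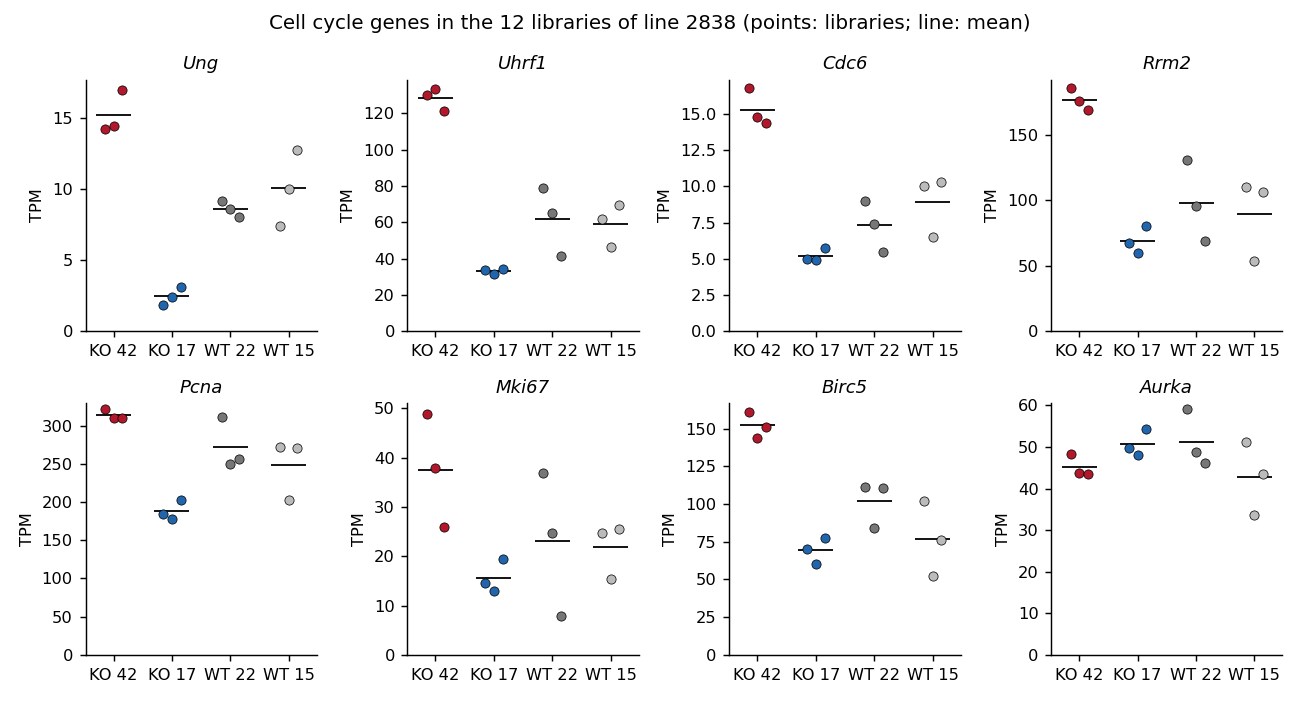
TPM of 8 cell cycle genes in each library of knockout clone 42, knockout clone 17, wild-type clone 22 and wild-type clone 15; points are libraries and lines are means. Clone 42 lies above clone 17 in 7 panels, while the libraries overlap for Aurka, a chromosome 2 gene.

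Histone genes rose in 13 (39.4%, against 23.6% of all genes tested) and fell in 3 (9.09%, against 25.7%) of 33 tested cases (median 0.62). The list was made for the replication-dependent genes, transcribed in S phase, but also holds H1f0, a replication-independent linker histone gene that did not pass (-0.08). H2ac11 had 14.4, 16.8 and 24.8 TPM in clone 42, against 3.41, 2.25 and 1.4 TPM in clone 17 (log2 change 2.56 ± 0.26 SE, limma adjusted p = 0.000122), and H2ac13 had 3.68, 5.97 and 12.1 TPM in clone 42, against 0.506, 0.335 and 0 TPM in clone 17 (log2 change 2.58 ± 0.36 SE, limma adjusted p = 0.000605). Most replication-dependent mRNAs lack a polyA tail, which polyA selection leaves out, and histone genes share reads with near-identical copies, so their levels are uncertain. H1f2 (-0.89), H2bc4 (-0.62) and H2bc21 (-0.62) fell.

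Cytosolic ribosomal protein genes were slightly lower in clone 42. Of the 58 on the list, 44 were down (75.9%, against 25.7% of all genes tested) and 4 up, with a median of -0.24. The list leaves out some genes of this family, among them Rps28 and Rps21, whose values are given below. All 4 members that rose were on chromosome 17, namely Rps2 (0.55), Rps18 (0.44), Rpl36 (0.57) and Rps10 (0.61). All 5 members on chromosomes 2 and 8 fell, among them Rpl12 (-1.10), Rpl35 (-0.75) and Rpl13 (-0.70), with a median of -0.71. Elsewhere 39 of 48 fell and 0 rose. Once chromosomes were centred, all 4 rises ended, with 47 genes lower and 0 higher, and a fit sharing the spread of all 12 libraries called 7 lower and 2 higher. Genes of this family have many processed pseudogene copies, and reads shared with them make small changes uncertain.

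Mitochondrially encoded genes were higher in clone 42 in 10 of 13 cases (76.9%, against 23.6% of all genes tested, median 0.64). The complex I genes mt-Nd6 (1.29), mt-Nd5 (1.02), mt-Nd2 (0.92) and mt-Nd1 (0.86) rose most, and mt-Cytb (0.19), mt-Nd3 (0.26) and mt-Atp6 (0.30) did not pass. Without clone 42 replicate 2, mt-Cytb (0.32) and mt-Atp6 (0.45) passed, and a fit sharing the spread of all 12 libraries called 6 genes higher. These genes took 8.43%, 7.49% and 10.1% of all TPM in clone 42, against 6.24%, 5.50% and 6.18% in clone 17. Because TPM sums to a fixed total, a larger mitochondrial share lowers every other gene. Nuclear genes of oxidative phosphorylation did not share the rise, with 11 higher (15.5%) and 25 lower (35.2%, against 25.7% of all genes tested) of 71 (median -0.10).

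Among the largest single rises, Sncg, gamma-synuclein, had 21.5, 33.4 and 20 TPM in clone 42, against 0.653, 1.09 and 0.418 TPM in clone 17 (log2 change 3.90 ± 0.22 SE, limma adjusted p = 7.71e-06). Klf1, a transcription factor known from red blood cells, had 12.3, 12.7 and 11.2 TPM in clone 42, against 0.0925, 0.243 and 0.133 TPM in clone 17 (log2 change 3.50 ± 0.13 SE, limma adjusted p = 1.94e-06). The wild-type libraries held Klf1 at 0.209 to 0.65 TPM, so it was high in clone 42 alone among these 4 clones. Ly9, a receptor known from lymphocytes, had 16.8, 14.5 and 16.1 TPM in clone 42, against 0.601, 0.403 and 0.588 TPM in clone 17 (log2 change 3.46 ± 0.13 SE, limma adjusted p = 1.84e-06). The summed leukocyte markers given above were also higher in clone 42, and their part in this difference was not tested.

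Serpinb9b, a serine protease inhibitor gene, had 124, 124 and 126 TPM in clone 42, against 17.9, 17.5 and 18 TPM in clone 17 (log2 change 2.74 ± 0.05 SE, limma adjusted p = 2.31e-07), with the wild-type libraries at 7.11 to 21 TPM. The membrane glycoprotein gene Gpm6b had 28, 28.9 and 24.6 TPM in clone 42, against 2.48, 2.45 and 2.28 TPM in clone 17 (log2 change 3.05 ± 0.10 SE, limma adjusted p = 1.38e-06). For Gpm6b clone 17 was the low clone, below the 5.23 to 42.5 TPM of the wild-type libraries. Prrg1 (3.11), the transporter gene Mfsd1 (2.97), the Rac exchange factor gene Prex2 (2.93), the ubiquitin ligase gene Rnf130 (2.83), Mlf1 (2.54) and the adhesion gene Tns1 (2.37) also rose. Rnf130 was listed at 0 in all 3 libraries of wild-type clone 22 and had 15.1, 16.7 and 14.1 TPM in wild-type clone 15, so this gene also separated the wild-type clones.

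The largest fall was that of Pfkp, the platelet isoform of phosphofructokinase, a rate-setting enzyme of glycolysis. Pfkp had 0.515, 0.892 and 0.474 TPM in clone 42, against 24.4, 30.7 and 25.4 TPM in clone 17 (log2 change -4.10 ± 0.15 SE, limma adjusted p = 1.64e-06). Clone 42 lay below the 2.73 to 8.37 TPM of the wild-type libraries and clone 17 above. Slc16a3, the lactate exporter MCT4, had 2.5, 0.514 and 0.818 TPM in clone 42, against 21.5, 26.1 and 19.11 TPM in clone 17 (log2 change -3.44 ± 0.29 SE, limma adjusted p = 5.48e-05). Slc16a3 also separated the wild-type clones, with 19.8, 28.2 and 24.1 TPM in clone 15, against 4.91, 5.09 and 4.29 TPM in clone 22. Igfbp3, a secreted binding protein of insulin-like growth factors, had 1.12, 1.23 and 1.83 TPM in clone 42, against 30.4, 31.9 and 27.9 TPM in clone 17 (log2 change -3.71 ± 0.14 SE, limma adjusted p = 1.84e-06), and here clone 42 stood apart, since the wild-type libraries had 20.7 to 54.2 TPM.

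The autophagy gene Map1lc3a (-3.48), the cap-binding gene Eif4e3 (-3.24), the actin regulator gene Enah (-2.92) and the ligand genes Bmp8b (-3.20) and Fgf2 (-3.14) fell to a similar degree, as did Tlcd2 (-3.14). Brd3os (-3.35) fell too, but its name marks it as an opposite-strand transcript, and without stated use of strand its reads cannot be told from those of its partner gene. Cldn7, a tight junction gene, had 0.987, 1.55 and 1.1 TPM in clone 42, against 15.7, 17.2 and 16.6 TPM in clone 17 (log2 change -2.99 ± 0.13 SE, limma adjusted p = 3.02e-06). For Cldn7 clone 17 was the high clone, as the wild-type libraries had 0.497 to 3.42 TPM.

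A few genes were listed at 0 throughout a single knockout clone. Lhfp, a membrane protein gene, had 5.71, 5.75 and 6.21 TPM in clone 42 and was listed at 0 in all clone 17 libraries. Nrk, a kinase gene known from the placenta, had 4.62, 4.09 and 2.04 TPM in clone 42 and was likewise listed at 0 in clone 17. The reverse held for 2 others. Eid2, an inhibitor of differentiation, was listed at 0 in all clone 42 libraries and had 4.45, 3.73 and 3.98 TPM in clone 17. AA414768 was listed at 0 in clone 42 and had 5.15, 4.32 and 5.44 TPM in clone 17. Lhfp, Eid2 and AA414768 were also listed at 0 in the 3 libraries of wild-type clone 22 and were above 0 in all 3 of wild-type clone 15. A value of 0 in such a table can be a failed estimate, and no fold is given.

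Position on the chromosome went with the direction of change. Chromosome 17 stood out, with 474 of its 579 tested genes higher and 17 lower in clone 42, 84.8% called against 49.3% of all genes. It held 5.11% of the genes tested and 17.8% of the genes called higher. The median log2 change on it was 0.70, and among its 489 genes with a mean of at least 5 TPM the median change was 1.65-fold. Chromosomes 2 and 8 went the other way, with medians of -0.37 and -0.34. On chromosome 2, 539 of 911 genes fell and 43 rose, and on chromosome 8, 356 of 637 fell and 40 rose.

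Smaller shifts, of at least 0.15 from the median of all genes, were seen on 4 further chromosomes. Chromosome 5 had a median of 0.28 (355 higher and 49 lower of 726) and chromosome 14 of 0.15 (125 higher and 45 lower of 377). Chromosome 3 had a median of -0.23 (69 higher and 251 lower of 559) and chromosome 15 of -0.19 (73 higher and 192 lower of 448). The 7 chromosomes were chosen by these medians, so no test of them is given, and 3 against 3 libraries could not give an exact permutation p below 0.1. With no filter on low values, 4 chromosomes passed that threshold. Neighbouring genes are not replicates, and no test was made across them. The other 13 chromosomes held 1469 higher and 1460 lower of 7049 genes, 41.6% called, so many calls lay outside the shifted chromosomes.

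Set against the mean of the 4 clones of the line, the chromosome 17 shift ran both ways. The median deviation of its genes was 0.30, 0.33 and 0.34 in clone 42, against -0.40, -0.43 and -0.41 in clone 17. Wild-type libraries lay from -0.02 to 0.02, except clone 22 replicate 3 at 0.22. On chromosome 2 clone 42 stood alone, at -0.27, -0.26 and -0.26, against 0.11 in each clone 17 library and 0.00 to 0.11 in the wild-type libraries. On chromosome 8 clone 42 was at -0.21, -0.22 and -0.20, against 0.12, 0.12 and 0.13 in clone 17. There the wild-type clones differed too, with 0.10, 0.11 and 0.14 in clone 22 and -0.07, -0.05 and -0.05 in clone 15. On chromosome 5 clone 17 was the low clone, with 0.10 in each clone 42 library, against -0.19, -0.17 and -0.18 in clone 17.

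**Figure D4:**
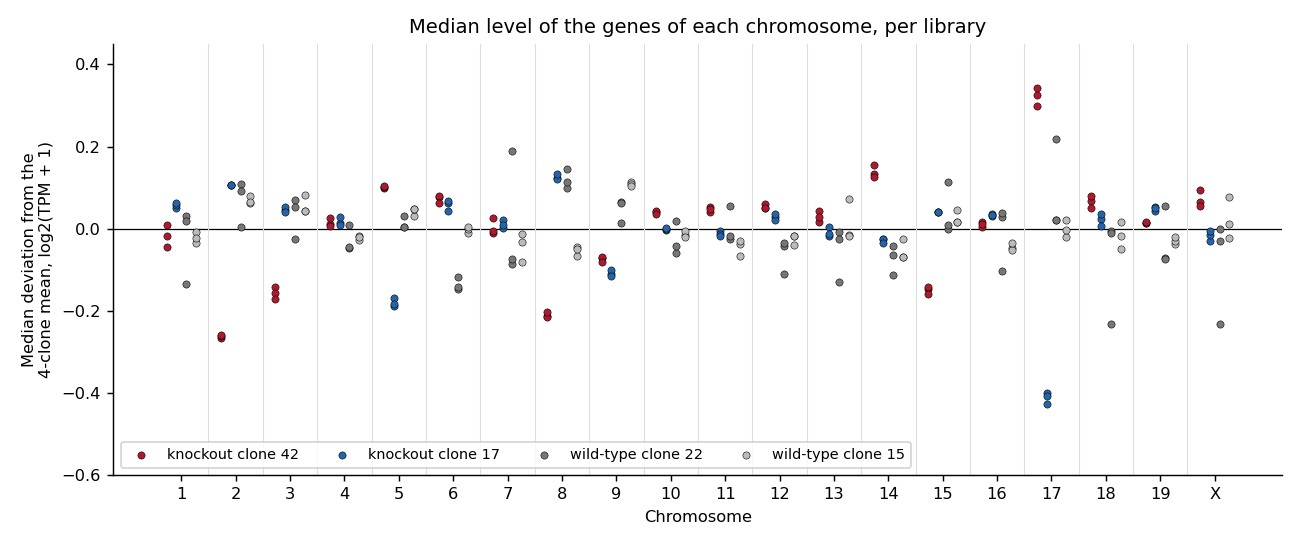
Median deviation of the genes of each chromosome from the mean of the 4 clones of line 2838, on the log2(TPM + 1) scale, with 1 point per library and the clones side by side. Clone 42 and clone 17 lie on opposite sides of the wild-type libraries on chromosome 17, while clone 42 lies apart on chromosomes 2, 3, 8, 14 and 15 and clone 17 on chromosome 5.

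In blocks of 30 neighbouring tested genes, the chromosome 17 shift covered the whole chromosome. All 19 blocks, from 3076578 to 94775132 in mm10, had medians between 0.44 and 0.92. All 30 blocks of chromosome 2 were between -0.48 and -0.23, and all 21 of chromosome 8 between -0.48 and -0.15. On chromosome 15 the shift began partway along, since blocks 1 to 5 had medians of -0.05 to 0.23, with 50 genes higher and 25 lower, and blocks 6 to 14, from 75616679, had -0.52 to -0.15, with 23 higher and 167 lower. On chromosome 5, blocks 1 to 13, up to 113778288, had 0.22 to 0.52 and blocks 14 to 24 had 0.08 to 0.25. By a threshold of 0.4 from the median of all genes, 41 of 366 blocks were shifted between the knockout clones, against 1 of 368 between the wild-type clones and 0 of 366 without clone 22 replicate 3. With no filter on low values, 25 blocks were shifted between the knockout clones. A single shifted block lay outside these chromosomes, on chromosome 13 from 21754076 to 23895730, where histone genes cluster. Its median was 0.59, with 12 of its 30 genes higher and 3 lower, against 23.6% and 25.7% of all genes tested.

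**Figure D5:**
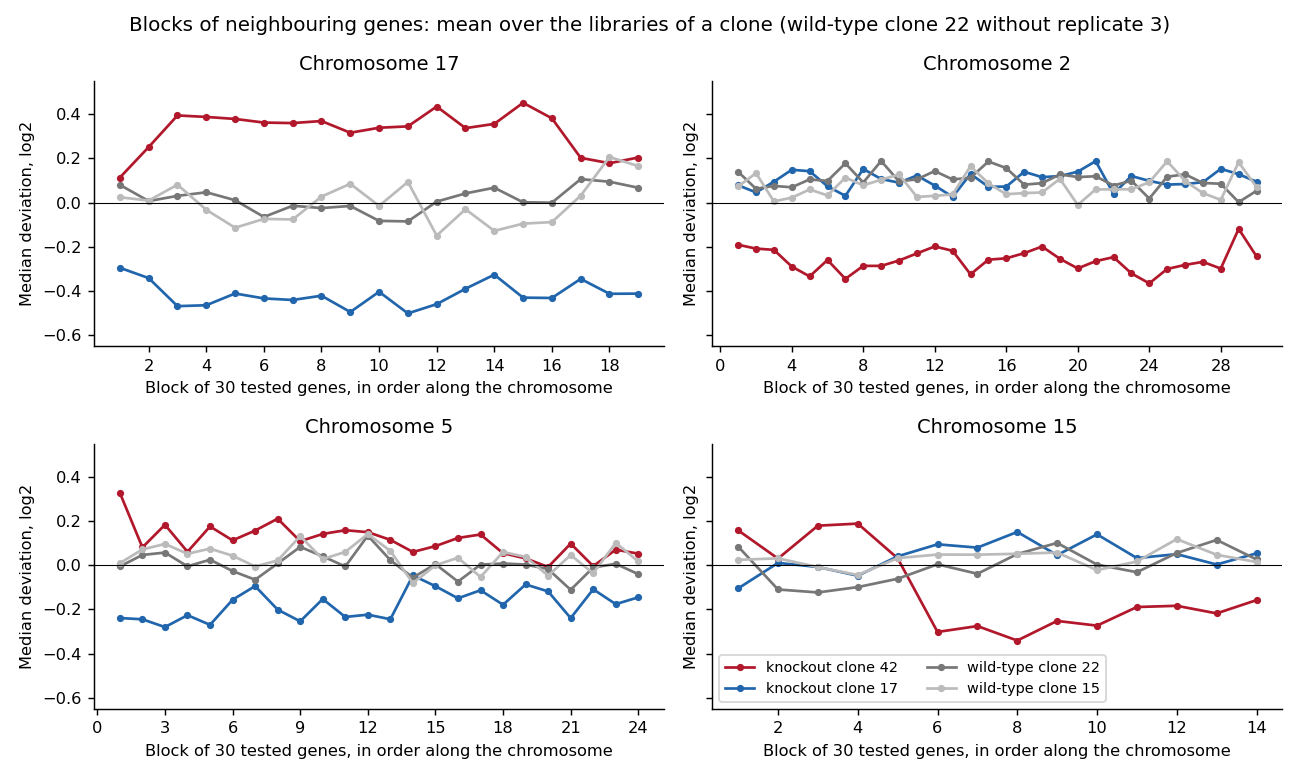
Median deviation from the 4-clone mean in consecutive blocks of 30 tested genes along chromosomes 17, 2, 5 and 15, averaged over the libraries of each clone, with wild-type clone 22 shown without replicate 3. The separation runs the length of chromosomes 17 and 2, narrows after block 13 on chromosome 5 and starts at block 6 on chromosome 15, where clone 42 departs from the other 3 clones.

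Abundant genes followed their chromosomes unevenly. On chromosome 17 the ribosomal protein genes Rps2, Rps18 and Rps28 were the most abundant, and Rps28 had 4124, 4891 and 4412 TPM in clone 42, against 3283, 3137 and 3025 TPM in clone 17 (log2 change 0.50 ± 0.06 SE, limma adjusted p = 0.000425). On chromosome 2, Rps21 (-0.40) and Rpl7a (-0.68) fell while Wfdc2, a secreted epithelial protease inhibitor gene, rose by 0.37. On chromosome 8, Rpl13 fell, and the metallothionein gene Mt1 (-0.09, limma adjusted p = 0.22) did not pass. On chromosome 5, Spp1, which encodes the secreted protein osteopontin, rose by 0.49. Actb (0.13) and Rplp0 (-0.14) passed narrowly, Actb losing its call without any 1 library other than clone 42 replicate 3 and Rplp0 without clone 17 replicate 2 or 3.

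Antigen presentation genes of the mouse H2 complex lie on chromosome 17, where 474 of all 579 tested genes rose. All 5 tested class I presentation genes there rose, against 0 of 5 elsewhere. Over the 10 genes of the list, 50% rose (against 23.6% of all genes tested) and 20% fell (against 25.7%). H2-K1, a classical class I heavy chain, had 294, 313 and 338 TPM in clone 42, against 139, 149.6 and 136 TPM in clone 17 (log2 change 1.15 ± 0.06 SE, limma adjusted p = 7.43e-06), and H2-D1 had 292, 295 and 299 TPM in clone 42, against 139, 133 and 138 TPM in clone 17 (log2 change 1.10 ± 0.04 SE, limma adjusted p = 2.06e-06). H2-D1 in clone 42 also lay above all 6 wild-type libraries, at 118 to 161 TPM. H2-T22 rose by 0.86 and Tapbp, the loading chaperone tapasin, by 0.87, but neither passed once chromosomes were centred (0.15 and 0.16). H2-T23, the fifth gene, passed narrowly at 0.22 in all 6 libraries, not without clone 17 replicate 1 or 3 (0.20 each), and was at -0.49 once chromosomes were centred. The immunoproteasome gene Psmb10, on chromosome 8, fell by 0.75, and Psme2, on chromosome 14, fell by 0.21. Interferon response genes fell in 6 (50%, against 25.7% of all genes tested) and rose in 1 of 12 tested cases (median -0.39). Class I genes share reads with near-identical copies, so the split between them is uncertain.

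Gastric mucous genes, which mark a foregut-like state of pancreatic tumours, rose in 8 (61.5%, against 23.6% of all genes tested) and fell in 3 of 13 tested cases (median 0.41). On chromosome 17 there were 5 of the 13, of which 3 rose and 2 fell. Mucl3, a mucin-like gene on chromosome 17, had 505, 456 and 479.6 TPM in clone 42, against 99.99, 102 and 95.6 TPM in clone 17 (log2 change 2.27 ± 0.05 SE, limma adjusted p = 2.31e-07), with 18.7 to 36.8 TPM in the wild-type libraries. Sult1c2, a sulfotransferase gene, had 222, 192 and 189.6 TPM in clone 42, against 51, 59 and 51.3 TPM in clone 17 (log2 change 1.88 ± 0.08 SE, limma adjusted p = 3.02e-06). Tff2, a trefoil peptide gene, had 152, 116 and 139.5 TPM in clone 42, against 19.09, 15.4 and 18.9 TPM in clone 17 (log2 change 2.86 ± 0.12 SE, limma adjusted p = 2.37e-06). Tff2 also separated the wild-type clones, with 134, 105 and 115 TPM in clone 15, against 23.7, 26.9 and 46.8 TPM in clone 22. Its neighbours in the trefoil cluster went the other way, since Tff1 had 434, 420.2 and 478 TPM in clone 42, against 825, 815 and 824 TPM in clone 17 (log2 change -0.89 ± 0.05 SE, limma adjusted p = 9.63e-06), and Tff3, under 6 TPM throughout, fell by 1.55. Cldn6, a claudin gene of early epithelia also on chromosome 17, had 9.86, 13.3 and 13.5 TPM in clone 42, against 86.2, 87 and 82.4 TPM in clone 17 (log2 change -2.71 ± 0.11 SE, limma adjusted p = 2.72e-06). The secreted gastrokine genes split as well, with Gkn2 up by 1.21 and Gkn1 lower (-1.03).

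Genes of epithelial and mesenchymal state moved in both directions. Of 26 tested epithelial genes 6 rose and 10 fell (median -0.13, 61.5% called against 49.3% of all genes tested). Of 11 mesenchymal genes 4 rose and 4 fell (median -0.09, 72.7% called). Classical subtype genes of pancreatic cancer divided into 5 higher and 8 lower of 18 (72.2% called). Those of the basal-like subtype divided into 3 higher and 4 lower of 7 (100% called). The keratin genes Krt8 (-0.35), Krt18 (-0.28) and Krt19 (-0.23) and the adhesion gene Cdh1 (-0.27) fell slightly, while Krt7 had 547, 550.4 and 531 TPM in clone 42, against 357, 351 and 350.4 TPM in clone 17 (log2 change 0.62 ± 0.04 SE, limma adjusted p = 1.09e-05). Prom1, a marker of ductal and progenitor cells, rose by 1.36. It also separated the wild-type clones, with 44.1, 29.5 and 35.1 TPM in clone 15, against 6.48, 6.16 and 10.2 TPM in clone 22. Sparc, a matrix protein gene, had 97.5, 101 and 97 TPM in clone 42, against 26.1, 27.2 and 24.9 TPM in clone 17 (log2 change 1.88 ± 0.06 SE, limma adjusted p = 1.27e-06), and here clone 17 was below all wild-type libraries, at 75.9 to 151 TPM. Vim, the mesenchymal filament gene (-0.25), and Cdh1 passed narrowly, Vim losing its call without clone 17 replicate 2 or 3 or clone 42 replicate 3 and Cdh1 without clone 17 replicate 1 or 2 or clone 42 replicate 2. Centring of chromosomes put both slightly above 0. Snai2, an epithelial to mesenchymal transition factor, had 4.8, 3.81 and 4.45 TPM in clone 42, against 17, 22.3 and 16.7 TPM in clone 17 (log2 change -1.87 ± 0.14 SE, limma adjusted p = 2.95e-05) and was the single gene called of 5 tested factors, whose median was 0.25.

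Integrins were lower in clone 42 in 7 of 11 tested cases (63.6%, against 25.7% of all genes tested), with 0 higher and a median of -0.46. On the chromosomes shifted lower 4 of 5 fell, and on those not shifted 3 of 6. The collagen-binding subunit genes Itga1 (-0.99) and Itga2 (-0.78) and the fibronectin-binding Itga5 (-0.65) and Itgav (-0.50) fell, although Itgav, on chromosome 2, did not pass once chromosomes were centred (-0.15). In a fit that shared the spread of all 12 libraries of the line, 1 integrin gene was lower. Matrix and collagen genes split, with 5 higher (27.8%, against 23.6% of all genes tested) and 6 lower (33.3%, against 25.7%) of 18 tested. Col6a1 rose by 1.87 and Col6a2 by 1.15, whereas the laminin chain genes Lamb3 (-0.98) and Lama3 (-1.31, under 2 TPM) fell. Chemokine and cytokine genes did so too, 8 higher (34.8%) and 6 lower (26.1%) of 23. Cxcl5, a neutrophil attractant, had 1045, 933 and 974 TPM in clone 42, against 283, 315 and 303 TPM in clone 17 (log2 change 1.71 ± 0.06 SE, limma adjusted p = 1.38e-06), and Cxcl3 rose by 1.66. Il33, an alarmin gene, had 42.8, 39.2 and 42 TPM in clone 42, against 103, 109 and 105 TPM in clone 17 (log2 change -1.33 ± 0.06 SE, limma adjusted p = 2.92e-06), and Il34, a ligand of the CSF1 receptor, fell by 2.19.

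NRF2 response genes fell in 13 (50%, against 25.7% of all genes tested) and rose in 4 of 26 cases, with a small median of -0.12. On the chromosomes shifted lower 6 of 8 fell, and on those not shifted 6 of 16 fell and 4 rose (median -0.09). Hmox1 (-0.80) and Nqo1 (-0.60), both on chromosome 8, Abcc1 (-0.76) and Slc7a11 were among the falls. After subtraction of the chromosome 8 median, Hmox1 was at -0.46 and Nqo1 at -0.26. Glycolysis and hypoxia genes fell in 13 (41.9%) and rose in 4 of 31 cases (median -0.10), and 9 of 25 fell on the chromosomes not shifted. The aldolase gene Aldoc (-1.52) and Ndrg1 (-1.22) fell, whereas Egln3, a prolyl hydroxylase gene induced by hypoxia, rose by 1.20. Of 33 cholesterol and fatty acid synthesis genes, 14 rose (42.4%, against 23.6% of all genes tested) and 6 fell (18.2%, against 25.7%). The median was 0.13, and the largest change was 0.76 on the log2 scale.

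Of 16 tested calcium handling genes outside the uniporter, 4 were higher (25%, against 23.6% of all genes tested) and 6 lower (37.5%, against 25.7%). The median was -0.20, and 62.5% were called, against 49.3% of all genes tested. Of 7 genes for calcium exit from mitochondria and for the outer membrane channels, 3 were higher (42.9%) and 2 lower (28.6%). Their median was 0.23. Itpr3, a calcium release channel of the endoplasmic reticulum encoded on chromosome 17, had 106, 94.6 and 77.5 TPM in clone 42, against 35.3, 35.2 and 35.5 TPM in clone 17 (log2 change 1.35 ± 0.10 SE, limma adjusted p = 3.37e-05). The related channel gene Itpr2 fell by 1.35. The calcium pump gene Atp2a3 (-1.80) and the plasma membrane channel gene Orai3 (-0.96) also fell. Aqp1, an aquaporin water channel gene, had 160.0, 165 and 170.3 TPM in clone 42, against 69.8, 70.3 and 64.1 TPM in clone 17 (log2 change 1.27 ± 0.06 SE, limma adjusted p = 3.02e-06), and Aqp5 rose by 1.89. Mest, an imprinted gene like Impact, rose by 1.74.

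Of the genes that define the mouse model, Trp53 and Pdx1 did not pass the test. Trp53 had 189.7, 189.7 and 169.9 TPM in clone 42, against 178, 184 and 185 TPM in clone 17 (0.01, limma adjusted p = 0.936). The libraries of the clones overlapped for Trp53. Pdx1, the pancreatic lineage factor, had a log2 change of 0.36 (limma adjusted p = 0.109). The tumour suppressor gene Cdkn2a had 241, 248 and 235 TPM in clone 42, against 274, 277 and 283 TPM in clone 17 (log2 change -0.20 ± 0.04 SE, limma adjusted p = 0.00443).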

How the data were processed

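The authors deposited TPM values of 18 libraries. The submitters' processing notes name Salmon and DESeq2 as the authors' tools and mm10 as the build. Versions and annotation are not given in the sources used here. For the 6 libraries of clones 42 and 17, log2(TPM + 1) entered a limma 3.58.1 fit (R 4.3.3) whose variance prior followed the mean level. Benjamini-Hochberg adjustment ran over all 11332 genes, with calls at an adjusted p under 0.05. Log2 changes are clone 42 minus clone 17 on that scale, which understates changes of low genes. Depth was unknown, so no counting interval is given. Gene positions came from GENCODE M21 (mm10) and RefSeq, for 99.7% of genes tested. Replicate numbers did not pair the libraries.

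The clones and the gene lists (41 lists with 1116 entries, and 5 added after values were seen, for one-carbon metabolism, amino acid transporters, tRNA synthetases, histones and chaperones) were chosen with earlier results of these data known, and no set test was made. Genes named were the 15 largest rises and falls without overlap whose higher clone averaged 5 TPM or more, the uniporter genes, up to 4 called members of each list, the 3 most abundant genes of a shifted chromosome, genes listed at 0 in 1 clone, and the genes of the mouse model. Not every gene the rule names is described, and some are not reported here. Further members of the stress, amino acid, synthetase, chaperone, cell cycle, ribosomal, matrix and metabolic lists, Aurka and the other chromosome 2 genes, Cldn6, H2-T23, H1f0, Tff1, Tff3, Gkn1 and Gkn2 were named after their values were seen. A check of the fits on simulated data is not reported here, and no result rests on it.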

Additional observations from a re-analysis of the deposited data

How the results depend on the processing

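In a fit that shared the spread of all 12 libraries of line 2838, 971 genes were higher and 1066 lower in clone 42, and the named genes that lost their call were Smdt1, Micu2, Mcur1, Calr, Sdf2l1, Pdia4, Hsp90b1, Mki67, H2bc21, Rps18, Rps28, Rps21, Rpl35, Rpl36, Rplp0, Wfdc2, Actb, Cdh1, Krt18, Krt19, Vim, Cdkn2a, Abcc1, H2-T23, Itga1, Itga2, Itga5 and Itgav. That fit included wild-type clone 22 replicate 3, and the part of that library in the lost calls was not tested. A test against a minimum log2 change of 1 called 87 higher and 103 lower, 190 in all, with 12 stress list genes lower and 3 S phase genes higher. Leaving out 1 library gave 2213 to 2600 genes higher, 2306 to 2825 lower, 681 to 727 at a log2 change of at least 1, 7 shifted chromosomes each time and 35 to 44 shifted blocks. With no filter on low values, 4 chromosomes and 25 blocks were shifted, a threshold of 0.3 kept 3 chromosomes, and blocks of 20 and 50 genes gave 68 and 17. For the wild-type pair, leaving out clone 22 replicate 3, an alternative chosen after seeing the data, gave 48 calls and 3492 for the difference between pairs. The cause of these differences was not tested.

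Centring each library on chromosome medians, the mitochondrial chromosome included, reversed Micu3 (0.25), Vars (-0.053), Aurka (0.20), Ube2c (0.20), Ckap5 (0.020), Tpx2 (0.22), Rps2 (-0.16), Rps18 (-0.28), Rps28 (-0.21), Rps10 (-0.11), Rpl36 (-0.14), Cdh1 (0.071), Vim (0.10), Trp53 (-0.034), H2-T23 (-0.49), H1f0 (0.094), Mt1 (0.25), Actb (-0.12), mt-Cytb (-0.52), mt-Nd3 (-0.46) and mt-Atp6 (-0.42). Leaving out 1 library gave ranges across 0 for Micu3 (-0.16 to 0.00353), Nusap1 (-0.055 to 0.073) and Trp53 (-0.020 to 0.059). The other scalings, pseudocount and filters reversed none of the named genes, and the median of all genes moved by less than 0.1. Libraries with the same replicate number did not deviate together (correlations of -0.17, -0.14 and -0.06), and a replicate block gave 2516 genes higher and 2735 lower.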
